A study of Homo sapiens with 6 samples.

Results

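The 4 genes described here, BMP2, BMP4, BMP6 and GDF5, encode secreted ligands of the bone morphogenetic protein (BMP) and growth differentiation factor (GDF) branch of the TGF-beta superfamily. They are 4 of 14884 genes with a named array probe, and 5 of the table's 53617 probes carry their names. They were chosen by their symbols with the difference between treated and untreated cells already known, so their values in that comparison are given as a description, without a test. Cultures of ARPE-19, an established cell line derived from human retinal pigment epithelium, had been grown to confluence and held for 4 weeks in 1% serum to differentiate. In medium without serum, 3 cultures then received vehicle (untreated) and 3 received 250 µM FAC, each for 2 days; FAC usually stands for ferric ammonium citrate, a source of iron. All 6 samples are biological replicates of the same unmodified line, with 1 array each. Levels are log2 intensities of a probe, differences are FAC minus untreated on the log2 scale, and errors are the SD of 3 arrays for a level and the SE of the limma fit for a difference.

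BMPs are made as precursors that furin-like convertases cleave, and the mature dimers bind type I and type II serine/threonine kinase receptors. The receptors phosphorylate SMAD1, SMAD5 and SMAD9, which enter the nucleus with SMAD4 and induce, among others, the ID genes and the inhibitory SMADs. In the liver, BMP6 and BMP2 from endothelial cells induce hepcidin in hepatocytes, and hepatic BMP6 expression follows iron stores. BMP4 and its relatives also act in eye development, where they help to specify retinal pigment epithelium.

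The promoters of the genes with an entry in the RefSeq promoter table (3 of the 4, all but BMP2) are shown because BMP4 and GDF5 were higher and BMP6 was lower with FAC. Each line gives the 250 bases before the gene's start on GRCh38.p14, 5′ to 3′ on the gene's strand, in lower case. The BMP4 window is chr14:53955051-53955300 (minus strand), the BMP6 window chr6:7725849-7726098 (plus strand) and the GDF5 window chr20:35454750-35454999 (minus strand). Capitals mark matches, on either strand, to any of 4 motifs, which are the TATA box TATAAA, the antioxidant response element core TGACNNNGC, the hypoxia response element core ACGTG and the GC-rich SMAD element GGCGCC.
BMP4: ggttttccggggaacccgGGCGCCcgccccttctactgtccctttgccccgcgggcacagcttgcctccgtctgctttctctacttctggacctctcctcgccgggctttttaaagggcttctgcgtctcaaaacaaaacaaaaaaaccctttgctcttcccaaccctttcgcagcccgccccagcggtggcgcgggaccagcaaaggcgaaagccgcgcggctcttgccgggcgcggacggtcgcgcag
BMP6: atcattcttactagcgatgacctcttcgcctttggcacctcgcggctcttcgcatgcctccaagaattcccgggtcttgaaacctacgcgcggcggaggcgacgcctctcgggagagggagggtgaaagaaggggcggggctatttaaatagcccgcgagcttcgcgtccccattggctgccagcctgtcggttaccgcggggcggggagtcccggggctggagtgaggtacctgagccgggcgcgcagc
GDF5: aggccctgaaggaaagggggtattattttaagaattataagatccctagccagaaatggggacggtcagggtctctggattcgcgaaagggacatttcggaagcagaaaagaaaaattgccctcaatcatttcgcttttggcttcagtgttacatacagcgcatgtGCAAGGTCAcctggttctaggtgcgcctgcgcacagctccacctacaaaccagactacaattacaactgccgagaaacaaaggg

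The BMP4 window held 1 match, GGCGCC, which starts 232 bases before the gene's start. The GDF5 window held 1 match to the antioxidant core, read on the opposite strand, 84 bases before the start. The BMP6 window held none of the 4 motifs. Of 27305 promoter windows of this length, 16.1% hold GGCGCC, 11.0% the antioxidant core, 18.7% ACGTG and 11.1% TATAAA, so matches of this kind are common. The matched letters did not overlap each other, and which start these cells use was not tested. The windows of BMP4 and BMP6 resembled each other in base composition. They were 63.6% and 64.4% G and C with 25 and 26 CpG dinucleotides, whose observed-to-expected ratios of 1.02 and 1.01 lay at percentiles 92.8 and 92.1 of all windows. The GDF5 window was 47.6% G and C with 9 CpG dinucleotides, a ratio of 0.64 at percentile 54.9. BMP6, lower with FAC, and BMP4, higher with FAC, were thus alike in CpG content. Any bearing of base composition on the differences with FAC was not tested.

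BMP2, which induces bone and cartilage and is among the ligands that raise hepcidin, differed most. Its level was 6.44, 6.34 and 6.64 in the untreated cultures and 7.88, 7.77 and 7.65 in the FAC cultures. The groups were separated by 1.01 between the highest untreated and the lowest FAC array, which is 6.55 times the larger of their SDs. The means were 6.48 ± 0.15 and 7.77 ± 0.12 (SD, n = 3), a difference of 1.29 ± 0.09 (SE) or 2.44-fold. Among all 14884 genes, ordered by signed difference, BMP2 ranked 2 from the top.

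BMP4, a close relative of BMP2 that signals through the same receptors, measured 10.29, 10.05 and 10.18 untreated and 10.84, 10.89 and 10.78 with FAC. The lowest FAC array lay 0.49 above the highest untreated one. The means were 10.17 ± 0.12 and 10.83 ± 0.05 (SD, n = 3), a difference of 0.66 ± 0.07 (SE) or 1.58-fold, which ranked 29 from the top.

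GDF5, a ligand of joint and cartilage formation that prefers the type I receptor BMPR1B, has 2 named probes, and the brighter was used. It measured 7.62, 7.80 and 7.64 untreated and 8.46, 8.40 and 8.40 with FAC. The groups were 0.60 apart at their nearest arrays. The means were 7.69 ± 0.10 and 8.42 ± 0.03 (SD, n = 3), a difference of 0.73 ± 0.06 (SE) or 1.66-fold, which ranked 20 from the top. The dimmer probe gave 6.35, 6.47 and 6.35 untreated and 6.63, 6.47 and 6.71 with FAC. Its groups were 0.0078 apart at their nearest arrays, and its difference was 0.22 ± 0.08 (SE). With both probes averaged the GDF5 difference was 0.48. The 20 named probes with identifiers nearest to the dimmer one, those of GDF5 itself set aside, all belong to genes on the plus strand, whereas 19 of the 20 around the brighter one belong to genes on the minus strand, where GDF5 lies. The strand that either probe reads was not tested.

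BMP6, the ligand that liver endothelium induces when iron is high, was the 1 gene of the 4 with a lower level in FAC-treated cells. It measured 10.69, 10.38 and 10.56 untreated and 10.10, 10.17 and 10.12 with FAC. The lowest untreated and the highest FAC array were 0.22 apart, less than the 0.30 spanned by the untreated arrays themselves. The means were 10.54 ± 0.15 and 10.13 ± 0.03 (SD, n = 3), a difference of -0.42 ± 0.08 (SE), 1.34-fold lower with FAC. It ranked 156 from the bottom of all genes. In RNA of whole cultures, fewer cells that express a gene and less of its RNA per cell cannot be told apart.

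**Figure D1:**
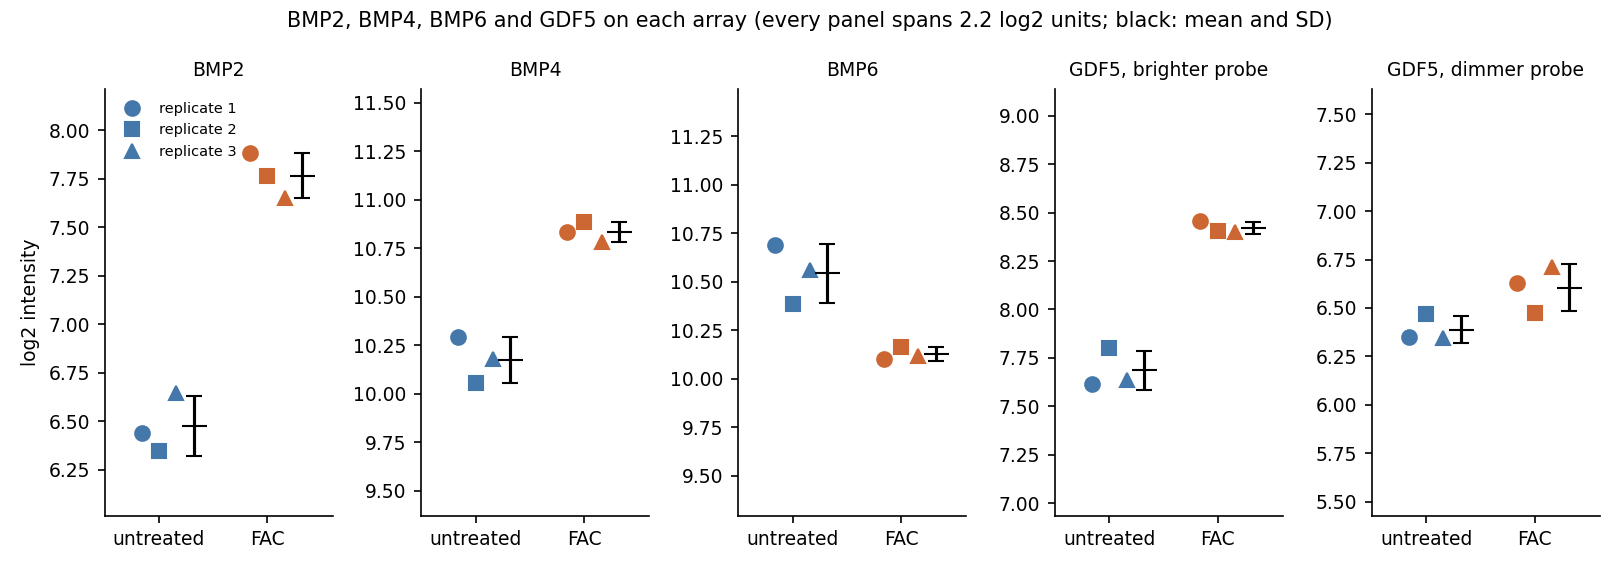
Log2 intensity of every named probe of BMP2, BMP4, BMP6 and GDF5 (vertical axis, every panel spanning the same number of log2 units) on the 3 untreated and 3 FAC arrays (horizontal axis). Symbols are arrays, shaped by replicate number, and black marks are group means with SD; the FAC arrays lie above the untreated ones for BMP2, BMP4 and GDF5, below them for BMP6, and only 0.0078 above the nearest untreated array for the dimmer GDF5 probe.

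For each of the 4 genes the 3 arrays of 1 group all lay above those of the other, and this also held for 23.4% of all genes tested. The comparison that chose these genes is the same one, so nothing is read from that count. The untreated arrays were more spread than the FAC arrays for each of the 4 genes, by SD ratios of 1.32 for BMP2, 2.24 for BMP4, 4.44 for BMP6 and 3.21 for GDF5. Over all genes no such lean was seen, since the untreated SD was the larger in 51.1% of them. It was not particular to the ligands, however. Of the 10 pathway genes below that passed the test, all but TWSG1 and MGP had the larger SD untreated. Examples are SMAD6 (0.29 untreated and 0.09 with FAC) and LRIG1 (0.21 and 0.04), while in SKIL the SDs were nearly equal (0.05322 and 0.05315).

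BMP4 and BMP6 deviated together within the untreated group although their differences with FAC had opposite signs. Untreated replicates 1, 2 and 3 lay 0.12, -0.12 and 0.0034 from the group mean for BMP4 and 0.14, -0.16 and 0.02 for BMP6. GDF5 deviated the other way, by -0.07, 0.12 and -0.05, so its highest untreated array was the lowest for BMP4 and BMP6. With FAC, BMP4 and BMP6 each varied little (SD 0.05 and 0.03). The log2 ratio of BMP4 to BMP6 within an array was steady, at -0.40, -0.33 and -0.38 untreated and 0.74, 0.72 and 0.67 with FAC. It shifted by 1.08, or 2.11-fold, with an SD of 0.04 in either group. The ratio of BMP2 to BMP6 shifted most, by 1.71 or 3.26-fold, from -4.07 ± 0.17 to -2.36 ± 0.13 (SD, n = 3). The ratio of BMP4 to GDF5 shifted by -0.07, within its untreated SD of 0.21. Probes differ in brightness for reasons other than abundance, so only the shifts of these ratios can be read, not their levels.

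The genes whose mean-centred profile over the 6 arrays was nearest to each ligand were found by the root mean square difference, among genes at or above the median level. Such closeness covers 6 arrays of 2 groups and is a description. Nearest to BMP6 was PAG1, an adaptor protein of lipid rafts, at 0.02, followed by RDH10, a retinol dehydrogenase of the visual cycle, at 0.03 and CSF1R, the receptor of macrophage colony-stimulating factor, at 0.04. All of these were lowest in replicate 2 within the untreated group, like BMP6, which their selection on these same arrays favours. RDH10 measured 12.06, 11.75 and 11.88 untreated and 11.51, 11.53 and 11.48 with FAC. Nearest to BMP4 was PTGIS, the prostacyclin synthase gene, at 0.05, with 9.96, 9.71 and 9.90 untreated and 10.53, 10.59 and 10.59 with FAC. PCDH18, a protocadherin, at 0.05 and FRY at 0.06 came next.

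Nearest to GDF5 were PLAAT4, a phospholipase and acyltransferase, at 0.03, the pro-apoptotic gene PMAIP1 at 0.05 and NUSAP1, a mitotic spindle protein, at 0.05. NUSAP1 measured 8.74, 9.01 and 8.68 untreated and 9.52, 9.50 and 9.53 with FAC. Untreated replicate 2 was its highest untreated array, as for GDF5, which selection on these same arrays favours. BMP2 had no gene as close. The complement gene C3 at 0.13, the matrix gene OLFML2A at 0.14 and the acid-sensing channel gene ASIC1 at 0.14 were nearest, and no gene lay within 0.1 of BMP2, against 17 for BMP4, 82 for BMP6 and 13 for GDF5. The 0.1 limit was not scaled to how much each ligand gene itself varied over the arrays. That root mean square was 0.65 for BMP2, 0.34 for BMP4, 0.37 for GDF5 and, the least, 0.23 for BMP6. BMP2 itself lay just below the median level, at percentile 48.9, and so outside the range its candidates came from. The counts therefore do not compare how distinctive the 4 profiles are.

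**Figure D2:**
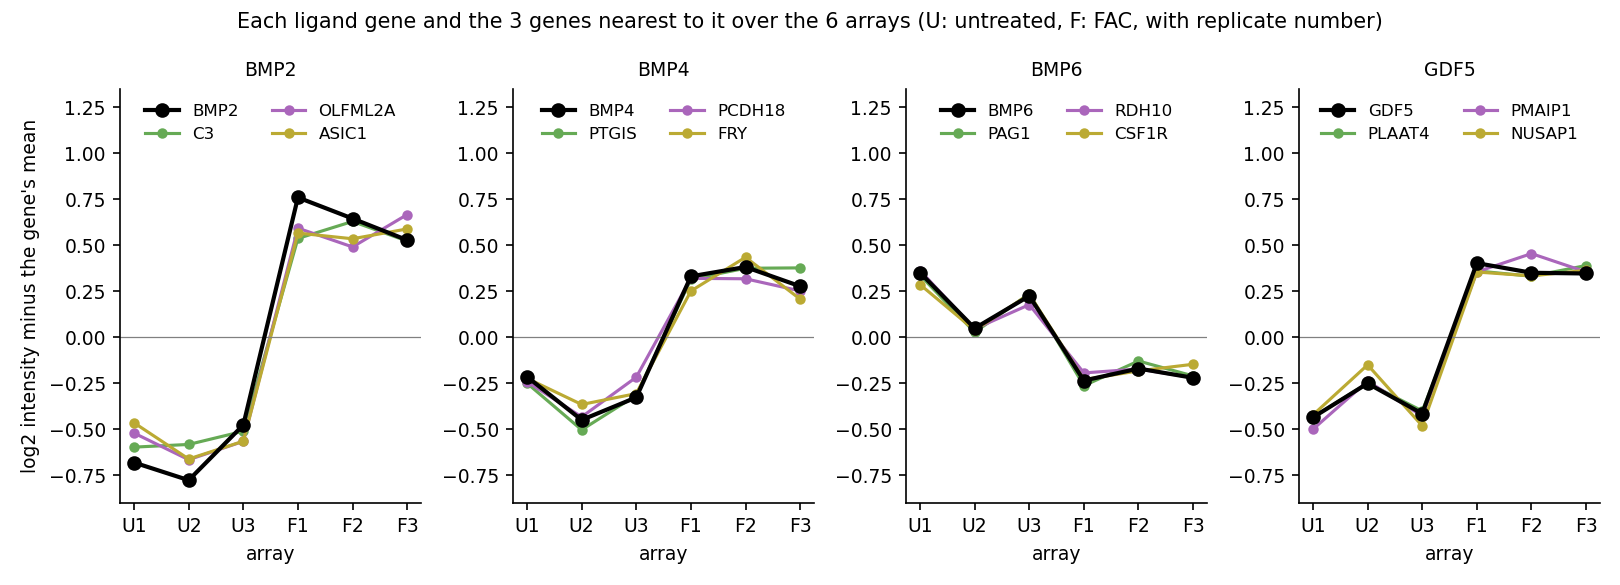
Log2 intensity minus each gene's mean over the 6 arrays (vertical axis) for each ligand gene (black) and the 3 genes nearest to it (colours), by array (horizontal axis, U untreated and F FAC with the replicate number). The BMP6 and GDF5 panels show the closest matches, at 0.02 to 0.04 and 0.03 to 0.05, and U2 is the low untreated array for BMP6 and the high one for GDF5.

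The nearest measured gene on either side of each ligand gene in the RefSeq gene table, and any measured gene overlapping it, were taken. Genes without a named probe were skipped and no limit was set on distance, so these genes need not adjoin the ligand genes. Of these 9, 1 passed the test at an adjusted p under 0.05, as did 3.73% of all genes. This was CDKN3, a phosphatase of the cell cycle and the nearest measured gene on one side of BMP4. It measured 8.24, 8.58 and 8.38 untreated and 9.03, 8.98 and 8.92 with FAC, and rose by 0.58 ± 0.09 (SE, limma adjusted p = 0.0160). Its highest untreated array was replicate 2, where BMP4 was lowest. On the other side DDHD1, a phospholipase, was at 0.08 ± 0.07 (adjusted p = 0.623). Around BMP6, SNRNP48 was at -0.03 ± 0.08 (adjusted p = 0.888) and BLOC1S5, of lysosome-related organelle biogenesis, at -0.09 ± 0.05 (adjusted p = 0.456). Around GDF5, UQCC1 was at 0.05 ± 0.05 (adjusted p = 0.666), CEP250 at 0.13 ± 0.06 (adjusted p = 0.318) and the overlapping microRNA gene MIR1289-1 at -0.21 ± 0.13 (adjusted p = 0.475). Around BMP2, FERMT1 was at 0.11 ± 0.07 (adjusted p = 0.481) and HAO1 at -0.03 ± 0.07 (adjusted p = 0.895). TXNDC5, which overlaps BMP6 in that table, and GDF5-AS1, which overlaps GDF5, have no named probe and were not analysed here.

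The other measured ligands of the family gave small differences. Of 26 listed, 21 were measured, and INHA, INHBA, INHBB, INHBC and INHBE, the inhibin and activin subunit genes, have no named probe and were not analysed here. None of the 21 passed limma's test at an adjusted p under 0.05, where 3.73% of all genes passed. The 4 ligand genes had been set apart from these with their differences known, so nothing is read from that count. At an unadjusted p under 0.05, which 17.2% of all genes met, there was 1, GDF7, a close relative of GDF5, at 0.19 ± 0.07 (adjusted p = 0.199). LEFTY1 had the next smallest p, at 0.14 ± 0.08 (adjusted p = 0.434). The 21 ran from -0.12 for BMP3 to 0.19, with a median of 0.03 against -0.0041 over all genes. GDF6, the relative of GDF5 that helps to pattern the eye, measured 8.94 ± 0.10 and 8.96 ± 0.04 (SD, n = 3), with a difference of 0.02 ± 0.06 (SE, adjusted p = 0.888). BMP7, which pairs with BMP2 or BMP4 in dimers, was at 0.05 ± 0.07 (adjusted p = 0.755), and GDF15, the stress-induced cytokine, at 0.04 ± 0.08 (adjusted p = 0.852). Of the 21 genes, 9 lay in the dimmest 33.3% of genes by mean level, where a change could be missed.

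**Figure D3:**
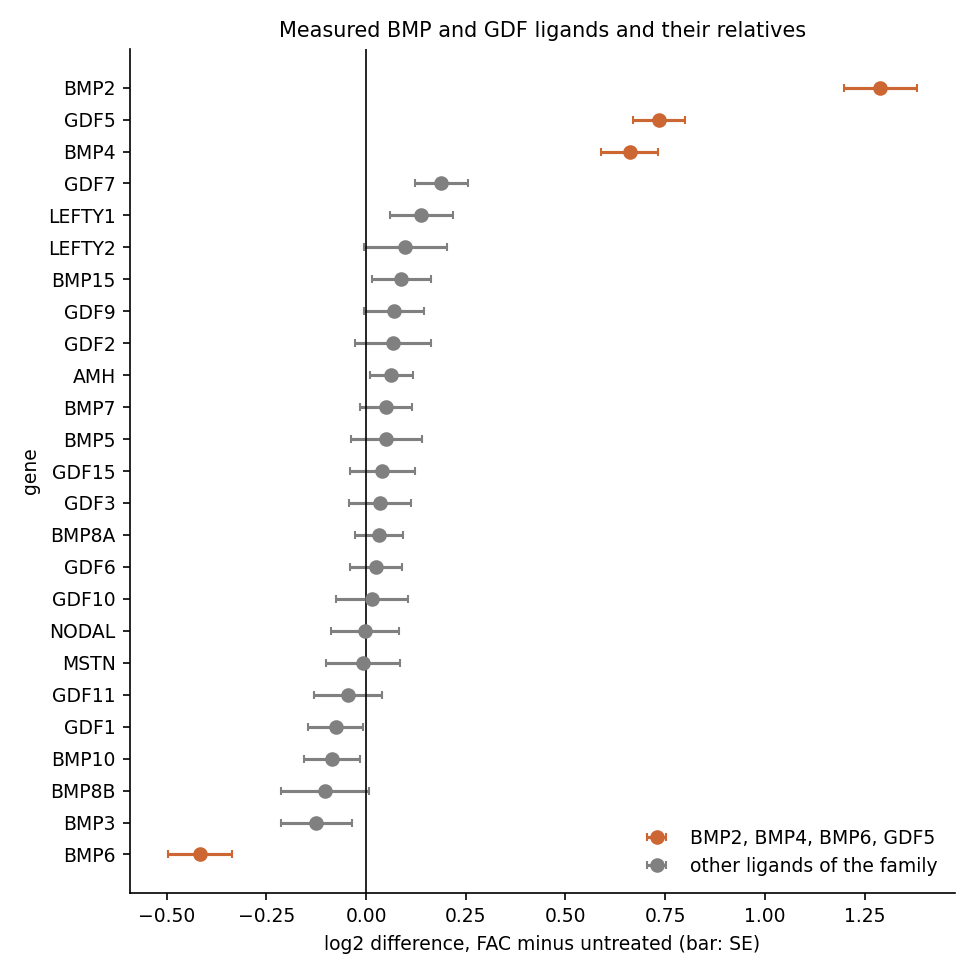
Log2 difference, FAC minus untreated, with its SE (horizontal axis), for each measured ligand gene (vertical axis). BMP2, GDF5, BMP4 and BMP6 (orange) were chosen with these differences known; the other 21 (grey) lie between -0.12 and 0.19.

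Of 88 measured genes in 8 lists around the ligands, the family list included, 10 passed, 3 higher and 7 lower with FAC, where over all genes 1.88% were higher and 1.85% were lower. The lists share some members, and each gene was counted once here. Without untreated replicates 1, 2 and 3 in turn, the 10 became 6, 12 and 4, and all genes passing went from 555 to 250, 447 and 150. Without FAC replicates 1, 2 and 3 in turn, the 10 became 3, 6 and 5, and the 555 became 147, 203 and 215.

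Of 7 measured genes of enzymes that process the ligands, 1 rose and 1 fell, where 3.73% of all genes passed in either direction. PCSK5, a convertase of TGF-beta family precursors, measured 7.05, 7.14 and 7.21 untreated and 7.55, 7.48 and 7.48 with FAC, and rose by 0.37 ± 0.06 (SE, 1.29-fold, adjusted p = 0.0194). TLL1, an astacin protease that cleaves the BMP antagonist chordin, measured 8.61, 8.37 and 8.72 untreated and 8.01, 8.10 and 8.08 with FAC, and fell by 0.50 on the log2 scale (SE 0.09, adjusted p = 0.0262). The other 5 did not pass. FURIN, the convertase best known for cleaving BMP precursors, was at -0.17 ± 0.06 (adjusted p = 0.179), and BMP1, a relative of TLL1 and no BMP ligand in spite of its name, at -0.09 ± 0.07 (adjusted p = 0.542). The median of the 7 was -0.09. PCSK5 missed the threshold when untreated replicate 1 (adjusted p = 0.0590) or FAC replicate 1 (0.0909), 2 (0.0603) or 3 (0.0579) was left out. TLL1 no longer passed without untreated replicate 1 (0.0844) or 3 (0.0843) or FAC replicate 1 (0.117), 2 (0.0698) or 3 (0.0816).

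Among 16 measured antagonists and modulators outside the cell, TWSG1, which binds BMPs together with chordin, rose by 0.24 ± 0.05 (SE, adjusted p = 0.0465) and no other gene passed. It was at 10.13, 10.18 and 10.16 untreated and at 10.44, 10.38 and 10.37 with FAC. Its call was lost without any 1 array (adjusted p between 0.0790 without untreated replicate 2 and 0.175 without FAC replicate 1). NOG, the gene of noggin, which sequesters BMP2, BMP4 and GDF5, measured 7.79, 8.43 and 7.79 untreated and 8.56, 8.58 and 8.60 with FAC. Its difference of 0.58 ± 0.16 did not pass (adjusted p = 0.104), and without untreated replicate 2, which lay far above the other untreated arrays, it did (adjusted p = 0.00338). When any other array was left out, NOG did not pass (adjusted p between 0.194 and 0.273). FST, the gene of follistatin, was at -0.26 ± 0.07 (adjusted p = 0.111), TMEFF2 at 0.35 ± 0.08 (adjusted p = 0.0694) and BAMBI, a decoy receptor, at 0.04 ± 0.06 (adjusted p = 0.787). The median of the 16 was -0.0022, and 3.73% of all genes passed.

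Of the receptors and co-receptors, 8 of 18 listed genes were measured, and they hold neither BMPR1A, BMPR1B, BMPR2 nor ACVR1, which have no named probe and were not analysed here. LRIG1, a membrane protein that dampens receptor tyrosine kinases and has been linked to BMP signalling, rose by 1.43 ± 0.10 (SE, adjusted p = 0.000922) and no other gene of this list passed. HJV, the BMP co-receptor hemojuvelin, was dim, at 5.01 ± 0.08 and 5.18 ± 0.07 (SD, n = 3), with a difference of 0.17 ± 0.06 (SE, adjusted p = 0.237). ENG, an endothelial co-receptor, was at 0.07 ± 0.08 (adjusted p = 0.697) and NEO1, which binds hemojuvelin, at -0.02 ± 0.05 (adjusted p = 0.875). The median of the 8 was 0.09, and 3.73% of all genes passed.

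**Figure D4:**
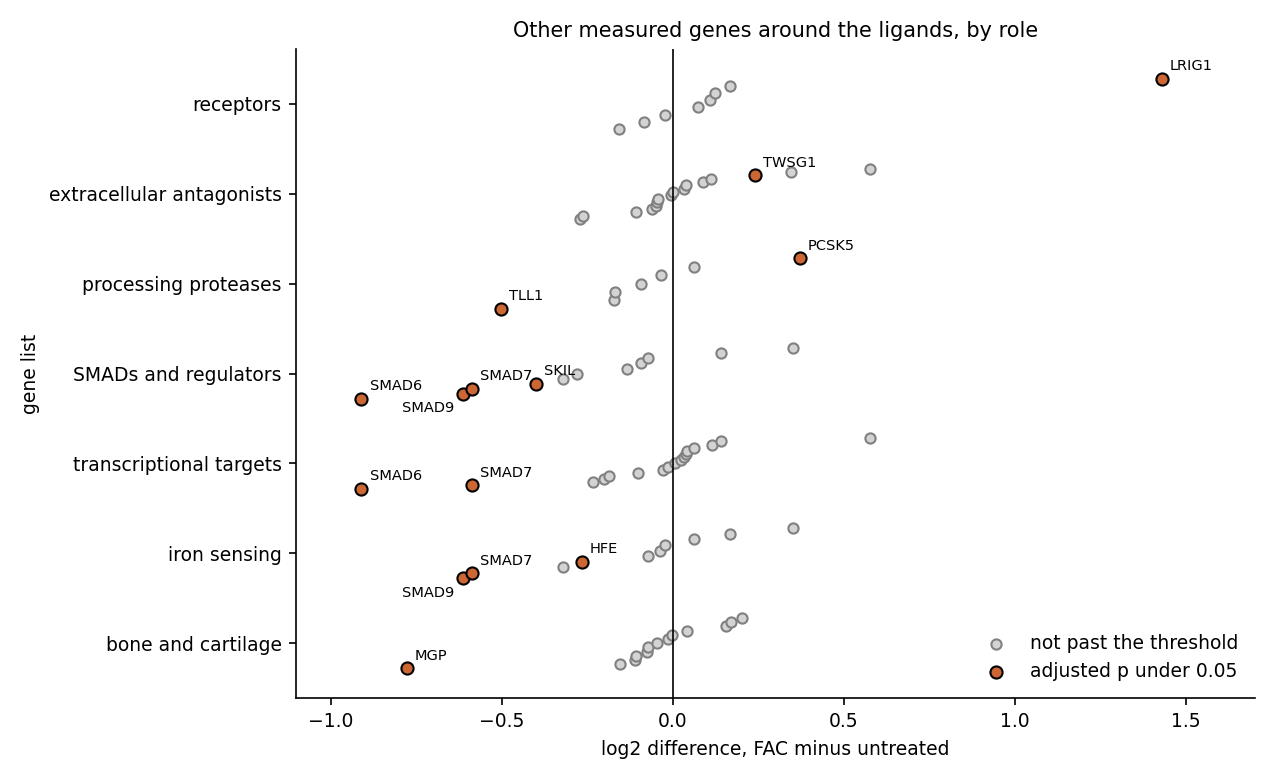
Log2 difference, FAC minus untreated (horizontal axis), of the measured genes of 7 lists around the ligands (vertical axis), with 1 point per gene and the genes past the threshold in orange with their names. SMAD6, SMAD9, SMAD7 and SKIL lie between -0.91 and -0.40, and TWSG1, PCSK5 and LRIG1 are the 3 genes on the right that passed.

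Inside the cell, 4 of 11 measured SMADs and SMAD regulators fell and none rose, with a median of -0.28. Over all genes 1.85% were lower and 1.88% higher, with a median of -0.0041. SMAD6, the inhibitory SMAD that acts chiefly on BMP signals, measured 9.48, 8.90 and 9.29 untreated and 8.27, 8.41 and 8.27 with FAC, and fell by 0.91 on the log2 scale (SE 0.13, adjusted p = 0.0137). SMAD7, the inhibitory SMAD of both branches, measured 9.55, 9.46 and 9.68 untreated and 9.02, 8.90 and 9.02 with FAC (-0.59 ± 0.07, adjusted p = 0.00714). SMAD9, a transducer of BMP signals, fell by 0.61 (SE 0.08, adjusted p = 0.0100) and SKIL, a SMAD corepressor, by 0.40 (SE 0.06, adjusted p = 0.0116). In SMAD6 and SMAD9, as in BMP4 and BMP6, untreated replicate 2 was the lowest untreated array. The main transducers did not pass and had opposite signs. SMAD1 measured 7.01 ± 0.11 and 7.36 ± 0.11 (SD, n = 3; 0.35 ± 0.08, adjusted p = 0.0555), and passed without untreated replicate 2 (0.0465). When any other array was left out, SMAD1 did not pass (adjusted p between 0.0873 and 0.175). SMAD5 measured 9.93 ± 0.10 and 9.61 ± 0.10 (SD, n = 3; -0.32 ± 0.08, adjusted p = 0.0664), and SMAD4, the common partner, was at -0.07 ± 0.05 (adjusted p = 0.541). SMAD6 missed the threshold when untreated replicate 3 (adjusted p = 0.0637), FAC replicate 1 (0.0699) or FAC replicate 3 (0.0579) was left out. SMAD9 no longer passed without untreated replicate 3 (0.0514) or FAC replicate 1 (0.0559), nor SKIL without the same arrays (0.0575 and 0.0544).

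Of 17 measured genes that BMP signals are known to induce, SMAD6 and SMAD7 fell, none rose, and the median was 0.0060. Both are also counted among the SMADs above, and 1.85% of all genes were lower. NOG, described among the antagonists, is on this list too, at 0.58 ± 0.16 and short of the threshold (adjusted p = 0.104). ID1, ID2, ID3 and ID4, the most direct of these targets, have no named probe and were not analysed here. HAMP, the gene of hepcidin, measured 7.51, 7.64 and 7.42 untreated and 7.68, 7.49 and 7.59 with FAC, with overlapping groups and a difference of 0.06 ± 0.08 (adjusted p = 0.742). ATOH8, a helix-loop-helix factor of the BMP and hepcidin pathway, was at -0.23 ± 0.11 (adjusted p = 0.347), and the homeobox genes MSX1 and MSX2 were at -0.03 ± 0.06 (adjusted p = 0.861) and 0.11 ± 0.09 (adjusted p = 0.568).

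Of 10 measured genes that sense iron or control hepcidin, the ligands apart, SMAD9, SMAD7 and HFE fell and none rose, with a median of -0.06. SMAD9 and SMAD7 are also counted among the SMADs above, and 1.85% of all genes were lower. HFE, whose loss causes hereditary hemochromatosis, measured 7.89, 7.81 and 7.96 untreated and 7.62, 7.62 and 7.61 with FAC (-0.27 ± 0.06, adjusted p = 0.0471). Its call held when untreated replicate 2 was left out and was lost without any other array (adjusted p between 0.123 and 0.155). TFR2, the second transferrin receptor gene, was at -0.04 ± 0.07 (adjusted p = 0.833).

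Of 13 measured bone and cartilage genes, the calcification inhibitor gene MGP, whose product binds BMPs, fell by 0.78 on the log2 scale (SE 0.06, adjusted p = 0.00115), and none rose. It measured 10.99, 10.95 and 11.04 untreated and 10.14, 10.25 and 10.26 with FAC. RUNX2, the master factor of bone formation, was at -0.0024 ± 0.07 (adjusted p = 0.989) and SOX9, that of cartilage, at -0.08 ± 0.06 (adjusted p = 0.561). The median of the 13 was -0.05, and 1.85% of all genes were lower.

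The array medians ran from 6.03 to 6.09, and Pearson's r of any 2 arrays across all probes from 0.991 to 0.995. Of 16 measured markers of retinal pigment epithelium, the transcription factor genes OTX2 (11.10 ± 0.10 untreated; SD, n = 3) and MITF (8.97 ± 0.06) were bright, while RPE65 (5.67 ± 0.15) and BEST1 (5.89 ± 0.02), of the mature cells, were dim. The rest of the list went both ways. RDH10 of the visual cycle (11.90 ± 0.16 untreated) and the pigment gene TYRP1 (10.07 ± 0.52) were bright, while LRAT (6.14 ± 0.08) and RLBP1 (6.83 ± 0.15) were dimmer. The table has no detection calls, so a dim gene cannot be called absent.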

How the data were processed

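The authors deposited 1 table of log2 intensities with 53617 probes and 6 columns made, per the submitters' processing notes, with RMA and Partek 6.6; their settings are not given in the sources used here. The array labelling started from 250 ng of total RNA, per the labels' protocols. The platform annotation named the probes (16098 with 1 symbol, none with several, 37519 unnamed here), updated through gene identifiers, and the brightest probe of each of 14884 genes was taken (779 genes have several). FAC and untreated arrays were compared across all genes with limma 3.58.1 (R 4.3.3, lmFit and eBayes, 2-sided), adjusting p-values over all genes by Benjamini-Hochberg and calling those under 0.05. The procedure was also tried on simulated data (20 runs), whose outcome is not given here and is not used to judge the calls. The ligand genes and the lists were chosen with earlier results of these data known. The text names the 4 ligand genes and their probes, a fixed set of pathway genes and every listed gene past the threshold. In a list with none, it names those with the smallest p. Also named are the 3 nearest profiles, the nearest measured gene on either side of each ligand gene and any measured gene overlapping it. Others, given as examples of their lists, were picked for their known roles after values were seen. Promoter windows are RefSeq sequences. The alternatives are those of the closing section. No protein sequence was used here.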

Additional observations from a re-analysis of the deposited data

How the results depend on the processing

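The log2 differences of the 4 ligand genes kept their sign in all 14 alternatives, between 1.22 and 1.37 for BMP2, 0.60 and 0.72 for BMP4, -0.50 and -0.35 for BMP6, and 0.48 and 0.79 for GDF5, whose 0.48 comes from averaging its probes. The 555 genes past the threshold (280 higher, 275 lower, 10 listed around the ligands) became 840 (442 lower) without the dimmest 33.3% of genes. They became 1026 (462 higher, 564 lower, 17 listed) with a variance prior that follows intensity with robust estimation, and 111 (53 higher, 58 lower, 3 listed) with adjustment over every probe of the table. With the replicate number as a block there were 184 (89 higher, 95 lower, 5 listed); same-numbered arrays did not deviate together (correlations of -0.02, -0.03 and -0.15), so the numbers were not taken as pairs. Without any 1 array there were between 147 and 447 (69 to 249 higher, 73 to 198 lower, 3 to 12 listed). Quantile normalization, median centring, array weights and averaged probes moved these counts by less than 1.5 times. Of 13 called listed genes, markers included, LRIG1, SMAD7 and MGP passed in all 14 alternatives and the other 10 missed in some; the cause was not tested. SMAD1, SMAD5 and NOG passed in 5, 2 and 2. The number of arrays limits the precision, and without detection calls signal over background is unknown.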

Other observations

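Within the untreated group, replicate 2 was the lowest array for BMP2, BMP4 and BMP6 and the highest for GDF5. Over the 16 measured markers of retinal pigment epithelium, the mean log2 level was 8.62, 8.42 and 8.57 in untreated replicates 1, 2 and 3 and between 8.48 and 8.53 with FAC. The pigment genes TYR (7.97, 6.88 and 7.86 untreated) and TYRP1 (10.45, 9.48 and 10.28) were much lower in untreated replicate 2 than in the others. With FAC, RDH10 fell (-0.39 ± 0.08, SE, limma adjusted p = 0.0430) and no other marker passed, where 3.73% of all genes did. RDH10 lost that call without any 1 array other than untreated replicate 2 (adjusted p between 0.0843 and 0.150). The part of this array's state in the ligand values was not tested.

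Markers of other cells mostly did not pass, and over all genes 3.73% did. Some were bright in untreated cells, namely CD68 (11.43 ± 0.06; SD, n = 3), SYT1 (9.43 ± 0.12), LUM (9.31 ± 0.15) and CSF1R (8.45 ± 0.13). The brightest of the rest was KDR (7.03 ± 0.29). Of 5 measured fibroblast and pericyte markers, LUM fell (-0.56 ± 0.08, SE, adjusted p = 0.0104; 0.0559 without FAC replicate 1), and the mean over the list was 6.99 to 7.07 untreated and 6.83 to 6.92 with FAC. Of 6 measured endothelial and leukocyte markers, CSF1R fell (-0.37 ± 0.07, SE, adjusted p = 0.0365), a call lost without any 1 array other than untreated replicate 2 (adjusted p between 0.0875 and 0.146), and the mean was 7.09 to 7.27 untreated and 7.03 to 7.11 with FAC. Of 5 measured neuron and photoreceptor markers none passed limma's test and 3 had an unadjusted p under 0.05, as did 17.2% of all genes. The rod arrestin gene SAG was at 0.27 ± 0.08 (adjusted p = 0.118) and the synaptic gene SYT1 at -0.21 ± 0.07 (adjusted p = 0.174). The defining markers CDH5, PTPRC and COL1A1 have no named probe. Their part in the ligand values was not tested.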
